A study of Mus musculus with 8 samples.

Results

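Loss of the kinase Pyk2 was set against loss of its autophosphorylation site alone, by asking of each gene whether its difference from wild type was the same in both mouse lines. The quantity is a difference of differences on a log2 scale: KO minus KO controls, less Y402F minus Y402F controls. It uses all 8 of the 8 libraries of the series and was computed for 12897 of the 17596 genes that could be joined between the deposited tables. KO denotes hippocampi of C57BL/6 mice with a CRISPR knockout of Pyk2, and Y402F those of C57BL/6 mice whose Pyk2 carries phenylalanine in place of the tyrosine it phosphorylates on itself, also made with CRISPR. Each line has its own wild-type C57BL/6 hippocampi, called KO controls and Y402F controls, and each of the 4 groups has 2 libraries. The labels give no age, sex, treatment, number of founders or number of animals per library, and which stretch of the gene the knockout lacks was not given in the sources used here. Nothing in the labels says whether the libraries of a group come from separate animals. The 2 libraries of each mutant group differed in sex-linked genes, as given below, whereas the spread within a control group may be technical.

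Pyk2, encoded by Ptk2b, is a nonreceptor tyrosine kinase of the focal adhesion kinase family that is abundant in forebrain neurons and is activated by rises in calcium. Phosphorylation of this tyrosine makes a docking site for Src-family kinases, while its proline-rich and C-terminal regions bind adaptors and postsynaptic scaffolds independently of that site. A knockout is meant to remove the docking site with the rest of the protein, and the substitution removes the docking site only. In hippocampal neurons, synaptic activity switches on immediate early genes such as Fos, Egr1, Arc and Npas4 through calcium- and cAMP-responsive factors, and the products of these genes take part in storing contextual memory.

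The mutant libraries held 5756180 and 5965760 expected counts in KO and 5825060 and 6017220 in Y402F, while the control tables give FPKM without counts, so that the depth of the controls is unknown. Values are printed as scaled FPKM, that is, fragments relative to transcript length and to all fragments of the library, divided by a median-of-ratios factor, and differences as log2 of scaled FPKM plus 1. All mutant tables are of one kind and all control tables of another. A shift between the kinds of table enters the KO effect and the Y402F effect alike and cancels in their difference only as far as it is equal in both lines. All 7 markers of hippocampal neurons were detected in every library, with summed levels of 271 to 409 scaled FPKM. Sex was not balanced: Ddx3y, a Y-linked helicase gene, was at 0.0419 and 5.07 scaled FPKM in KO, 0.0424 and 4.74 in Y402F, 0.0694 and 0.0694 in KO controls and 5.77 and 4.78 in Y402F controls. Each mutant group thus had one female and one male pattern, both KO controls a female one and both Y402F controls a male one, so in the control pair sex and line cannot be told apart. KO control replicate 2, though female by Ddx3y, held the Y-linked Eif2s3y at 0.687 and Kdm5d at 0.270 scaled FPKM. Both genes were at 0 in KO control replicate 1. In the Y402F controls Eif2s3y was at 9.10 and 7.86 and Kdm5d at 3.56 and 3.62. Where these low values came from was not tested. A transcript of choroid plexus epithelium, Ttr, which encodes transthyretin, reached 1015 and 1032 scaled FPKM in the Y402F controls and 656 in Y402F replicate 2, while the other 5 libraries had 1.19 to 10.2.

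For 4 of 12897 genes the effects of the 2 lines differed by limma at an adjusted p under 0.05, which is 0.031% of the genes tested. All 4 were more negative in KO: Ptk2b itself, the long noncoding RNA A830082N09Rik, the small cytoplasmic RNA Rny1 and the microRNA gene Mir8104. At an unadjusted p under 0.05 there were 1682 genes (13% of those tested), of which 750 were positive (5.82%) and 932 negative (7.23%). The median difference over all genes was 0.02 with a median standard error of 0.25, and the 5th and 95th percentiles were -0.66 and 0.67. By the same fit, 37.6% of genes were called in KO against its controls and 32.4% in Y402F against its controls, 0.0388% between the mutant groups and 8.09% between the control groups.

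The difference of effects can be written as KO minus Y402F less KO controls minus Y402F controls, which places libraries of one kind of table on each side. Over the genes tested, the standard deviation of the mutant-pair difference was 0.22 and that of the control-pair difference 0.46, against 0.48 for the difference of effects. The control-pair difference was the larger of the 2 components in 1588 of the 1682 genes (94.4%) and in 9671 of all 12897 (75%). These shares describe the arithmetic of a sum whose components share its libraries, and carry no test. With a term for sex in the model, 138 genes were called in place of 4, of which 23 were positive and 115 negative and 4 were the same genes. That term was estimated from the mutant libraries only, since sex and line coincide in the controls.

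**Figure D1:**
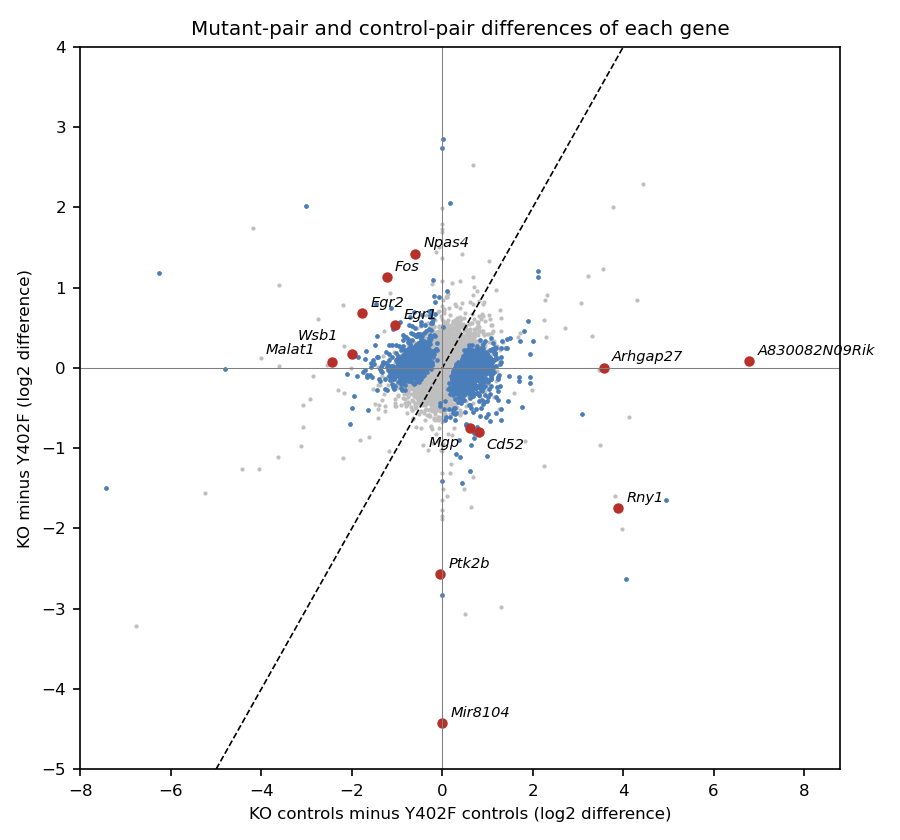
Each point is 1 of the 12897 genes tested, with the log2 difference of KO controls minus Y402F controls on the horizontal axis and that of KO minus Y402F on the vertical axis; the distance above or below the dashed diagonal is the difference of effects. Blue points have an unadjusted limma p under 0.05 and red points are named. Ptk2b and Mir8104 lie below the diagonal along the vertical axis, A830082N09Rik and Arhgap27 lie far to the right, and Fos, Egr1, Egr2 and Npas4 lie to the upper left, displaced along both axes.

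Ptk2b (chr14:66153257-66281052 on GRCm38) was at 56.1 and 68.7 scaled FPKM in KO, 309 and 308 in KO controls, 354 and 396 in Y402F and 324 and 317 in Y402F controls. The KO libraries were low and no other group came near them. KO kept 20.2% of the mean of its controls and Y402F had 117%. The log2 effects were -2.29 in KO and 0.22 in Y402F, and the difference of effects was -2.52 (SE 0.15, limma adjusted p = 4.06e-04). The control-pair difference contributed -0.05 of log2, so that nearly all of it came from KO against Y402F, at -2.57. Under the 22 other settings tried the difference of effects stayed between -2.74 and -2.38, with limma adjusted p-values of 7.21e-05 to 0.0121. The knockout libraries still held 1204 and 1511 expected counts of the gene, against 7600 and 8813 in Y402F.

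Ptk2, which encodes focal adhesion kinase, the only paralog of Pyk2, was at 21.7 and 20.2 scaled FPKM in KO, 34.7 and 24.8 in KO controls, 21.7 and 21.3 in Y402F and 26.8 and 21.4 in Y402F controls. The ranges of the library differences of the lines overlapped, and the difference of effects was -0.31 (SE 0.24, limma adjusted p = 0.626).

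The other 3 called genes were chosen by their call and not by any property of the RNA. A830082N09Rik (chr10:33987216-33995055 on GRCm38), a long noncoding RNA, reached 399 and 449 scaled FPKM in KO controls and lay between 1.90 and 2.90 in the other 6 libraries. Its difference of effects was -6.70 (SE 0.24, limma adjusted p = 2.2e-05), with 0.09 from the mutant pair and 6.79 from the control pair. The Cufflinks bounds deposited for those estimates, scaled in the same way, ran from 0 to 1595 and from 0 to 1689 scaled FPKM.

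Rny1 and Mir8104 are short RNAs, and their sequences are printed because so few bases turn a handful of reads into a sizeable FPKM. Rny1 encodes Y1 RNA, a component of Ro ribonucleoprotein particles; its 112 bases are those of the GENCODE M21 transcript at chr6:47788069-47788180 on the minus strand of GRCm38.
Rny1: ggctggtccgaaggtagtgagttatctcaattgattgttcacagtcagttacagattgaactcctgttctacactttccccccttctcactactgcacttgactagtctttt
Mir8104 is shown by its mature microRNA of 22 bases, from RefSeq on GRCm38.p6 (chr10:122679336-122679357, plus strand), with the seed, bases 2 to 8, in capitals.
Mir8104: cAGGAUGAgguggagugcagcg
Rny1 was listed at 0 in both KO libraries and both Y402F controls, at 2.39 and 2.30 scaled FPKM in Y402F and at 13.8 and 13.9 in KO controls. The Y402F values rest on 1 expected count each, and the bounds of the KO control values ran from 0 to 96.9 and 97.0 scaled FPKM. Its difference of effects was -5.64 (SE 0.26, limma adjusted p = 8.45e-05). Mir8104 was at 22.9 and 18.3 scaled FPKM in Y402F, from 8.32 and 6.86 expected counts, and at 0 in KO and practically 0 in all controls, whose upper bounds reached 126 to 128 scaled FPKM. Its difference of effects was -4.42 (SE 0.30, limma adjusted p = 8.59e-04), and at a pseudocount of 0.1 the limma adjusted p was 0.118. Where a group is at 0, the size depends on the pseudocount, and at 0.1 it was -11.74 for Rny1 and -7.68 for Mir8104. A lower bound of 0 in at least one control library was found for 1515 of the 12897 genes (11.7%), and when these were left out, a setting added after seeing the data, Ptk2b was the one gene called.

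**Figure D2:**
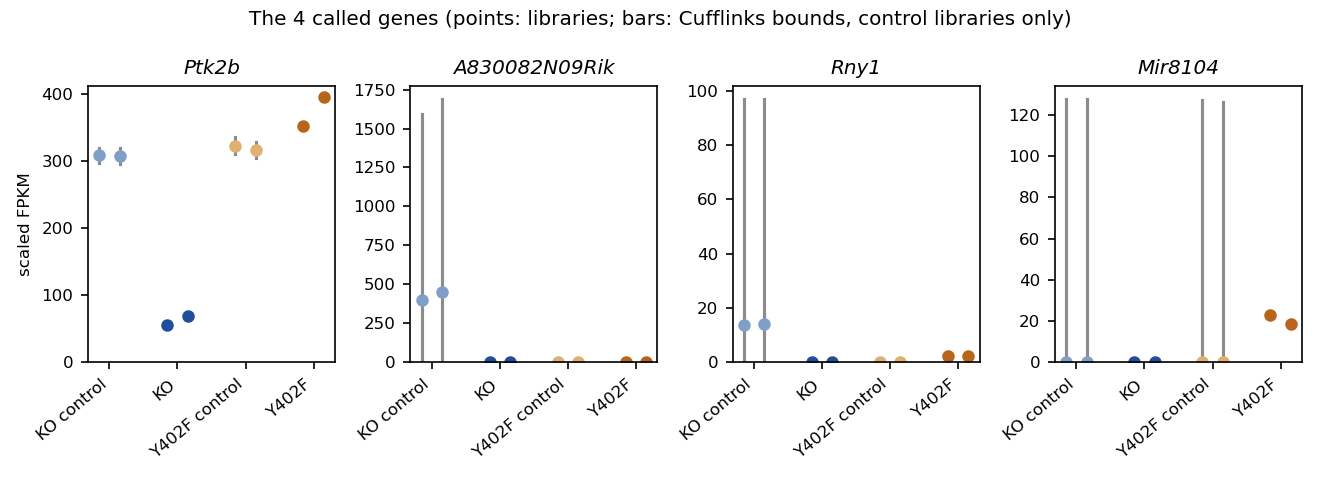
Scaled FPKM of the 4 called genes in the 8 libraries, 1 panel per gene with its own linear axis; points are libraries, and grey bars on the control libraries span the scaled Cufflinks bounds. Ptk2b is low in KO with narrow bounds in the controls, whereas the lower bounds of A830082N09Rik, Rny1 and Mir8104 are 0. In the KO controls the upper bounds of A830082N09Rik and Rny1 reach several times the plotted value. Both bounds of Rny1 are 0 in the Y402F controls. Mir8104 is practically 0 in all controls, with upper bounds of 126 to 128 scaled FPKM.

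Next after the called genes came Arhgap27, which encodes a GTPase-activating protein. It was at 43.4 and 84.7 scaled FPKM in KO controls and between 4.0 and 6.08 in the other 6 libraries. The difference of effects was -3.57 (SE 0.42, limma adjusted p = 0.0519), and under other settings its limma adjusted p ran from 0.00261 to 0.218. KO minus Y402F was 0.01 for this gene, and the lower Cufflinks bound was 0 in both KO controls.

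Fos, Egr1, Egr2, Nr4a1 and Arc, all activity-induced, were among the 12 genes of named function with the most positive moderated t. None of the 12 was called. Fos encodes a subunit of the AP-1 factor and was at 7.88 and 12.3 scaled FPKM in KO, 2.75 and 1.60 in KO controls, 4.07 and 3.84 in Y402F and 7.46 and 5.32 in Y402F controls. KO was the highest group and KO controls the lowest, and the order was turned in the other line, where both controls lay above both Y402F libraries. The difference of effects was 2.36 (SE 0.38, limma adjusted p = 0.103), with an effect of 1.80 in KO and -0.56 in Y402F.

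Junb, the gene of another AP-1 subunit, was at 49.2 and 69.5 scaled FPKM in KO, 18.8 and 23.0 in KO controls, 37.8 and 33.8 in Y402F and 30.8 and 34.4 in Y402F controls. Both KO libraries were above every other library, and the Y402F line overlapped with its controls. Junb differed in effect by 1.32 (SE 0.25, limma adjusted p = 0.134). Fosl2, a Fos-related subunit, had 0.55 (SE 0.19) and Fosb 0.80 (SE 0.37). Jund, whose product is made constitutively in most cells, had -0.43 (SE 0.16), and Jun -0.02.

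Of the 7 AP-1 genes tested, 5 had a positive difference of effects, against 51.7% of all genes. At an unadjusted p under 0.05, 3 were positive and 1 negative (57.1%, against 13% of all genes), with 0 called. The median was 0.55, with medians of 0.47 in the mutant pair and -0.31 in the control pair, against 0.02 over all genes. Atf3 and Maff were under the filter on low values. The median was 0.84 without KO replicate 1 and 0.50 without KO replicate 2.

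The Egr, Nr4a and Npas4 group holds transcription factors that neurons make within minutes of firing. Egr1, a zinc finger factor, was at 66.2 and 81.6 scaled FPKM in KO, 19.2 and 18.6 in KO controls, 59.1 and 43.3 in Y402F and 39.1 and 40.7 in Y402F controls. KO was the highest group and KO controls were the lowest by a wide margin, while Y402F lay above its controls in both libraries. Egr1 differed in effect by 1.57 (SE 0.22, limma adjusted p = 0.0998), and without Y402F replicate 1 it was 1.78 and passed (limma adjusted p = 0.0456).

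Egr2, a related factor, was at 1.96 and 2.21 scaled FPKM in KO, 0.631 and 0.597 in KO controls, 1.41 and 0.528 in Y402F and 3.73 and 5.43 in Y402F controls. The Y402F controls were the highest group here, so that the effects had opposite signs, 0.93 in KO and -1.52 in Y402F. Egr2 differed in effect by 2.46 (SE 0.38, limma adjusted p = 0.0998). Low values limit this gene: the mutants held 9 to 37 expected counts and 3 of the 4 control libraries had a lower Cufflinks bound of 0.

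Npas4, an activity-dependent factor of neurons, was at 4.30 and 8.39 scaled FPKM in KO, 0.988 and 0.899 in KO controls, 2.03 and 1.28 in Y402F and 1.99 and 1.92 in Y402F controls. Both KO libraries were above the other 6 and far apart from each other. Npas4 differed in effect by 2.03 (SE 0.41, limma adjusted p = 0.143), of which 1.42 came from KO against Y402F. Nr4a1, an orphan nuclear receptor gene, was at 35.2 and 45.4 scaled FPKM in KO, 13.1 and 14.8 in KO controls, 30.1 and 24.9 in Y402F and 23.2 and 24.2 in Y402F controls. Again the KO libraries were highest and the KO controls lowest, with a difference of effects of 1.26 (SE 0.22, limma adjusted p = 0.134). At pseudocounts of 5 and 0.1 the low genes of the activity response gave other sizes on the log2 scale, 1.40 and 2.84 for Fos, 1.02 and 3.85 for Egr2, and 0.97 and 2.81 for Npas4.

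Over this group, 14 of 17 genes had a positive difference of effects, against 51.7% of all genes tested. At an unadjusted p under 0.05 there were 9 positive and 1 negative (58.8%, against 13% of all genes), with 0 called. The positive ones were Egr1, Egr2, Egr4, Nr4a1, Nr4a2, Nr4a3, Npas4, Klf10 and Btg2, and the negative one was Crem (-0.71, SE 0.27), which encodes a cAMP-responsive modulator. The median was 0.69, with 0.16 in the mutant pair and -0.54 in the control pair. Under the 22 other settings it stayed between 0.53 and 0.86, and with the sex term it was 0.76.

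Promoters of 4 of these genes are shown because activity-induced genes are read out in common by cAMP-responsive factors, whose half-site is TGACG or its reverse complement. The stretches are the 250 bases before the RefSeq start on GRCm38.p6, written in the direction of transcription, with half-sites on either strand in capitals: Fos at chr12:85473640-85473889 (plus strand), Junb at chr8:84978749-84978998 (minus), Npas4 at chr19:4989972-4990221 (minus) and Nr4a1 at chr15:101266596-101266845 (plus).
Fos: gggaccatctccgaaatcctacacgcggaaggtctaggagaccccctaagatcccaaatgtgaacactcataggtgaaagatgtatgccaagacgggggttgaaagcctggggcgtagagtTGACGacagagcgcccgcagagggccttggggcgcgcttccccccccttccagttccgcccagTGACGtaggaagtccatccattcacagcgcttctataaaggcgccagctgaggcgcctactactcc
Junb: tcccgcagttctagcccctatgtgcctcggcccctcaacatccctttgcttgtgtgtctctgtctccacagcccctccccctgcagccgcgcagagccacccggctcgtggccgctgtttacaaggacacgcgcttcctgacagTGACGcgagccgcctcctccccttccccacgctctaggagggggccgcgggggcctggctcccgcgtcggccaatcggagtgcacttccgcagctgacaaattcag
Npas4: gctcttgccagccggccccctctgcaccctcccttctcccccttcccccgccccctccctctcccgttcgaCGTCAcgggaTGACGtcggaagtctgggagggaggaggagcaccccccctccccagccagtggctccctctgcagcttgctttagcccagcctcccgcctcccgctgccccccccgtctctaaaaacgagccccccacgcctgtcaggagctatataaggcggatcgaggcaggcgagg
Nr4a1: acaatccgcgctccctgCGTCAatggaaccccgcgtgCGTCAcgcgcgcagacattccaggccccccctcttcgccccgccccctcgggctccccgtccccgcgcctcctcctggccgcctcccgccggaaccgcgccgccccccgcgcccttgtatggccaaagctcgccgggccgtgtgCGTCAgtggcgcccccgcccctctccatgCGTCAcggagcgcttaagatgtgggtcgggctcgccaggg
Counted from the start site, half-sites began at bases -129 and -66 in Fos, -106 in Junb, -179 and -169 in Npas4, and -233, -213, -69 and -40 in Nr4a1. In the full windows of 300 bases, which reach past the start site, a half-site was present in 14 of the 18 AP-1, Egr, Nr4a and related factor genes with a window (77.8%; 24 were tested). The same held for 35.2% of the 10220 tested genes with a window and for 20.8% of all 32851 windows. The complete cAMP response element TGACGTCA, which contains the half-site on both strands, was in 1 of the 18 genes (5.56%) and in 3.51% of the tested genes. A CArG box was in 2 of the 18 (11.1%) and in 1.56% of the tested genes, the Egr site GCGTGGGCG in 0 and in 1.42%, and the TATA box TATAAA in 4 (22.2%) and in 8.6%. Such a match describes letters in a window and does not show a bound site.

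**Figure D3:**
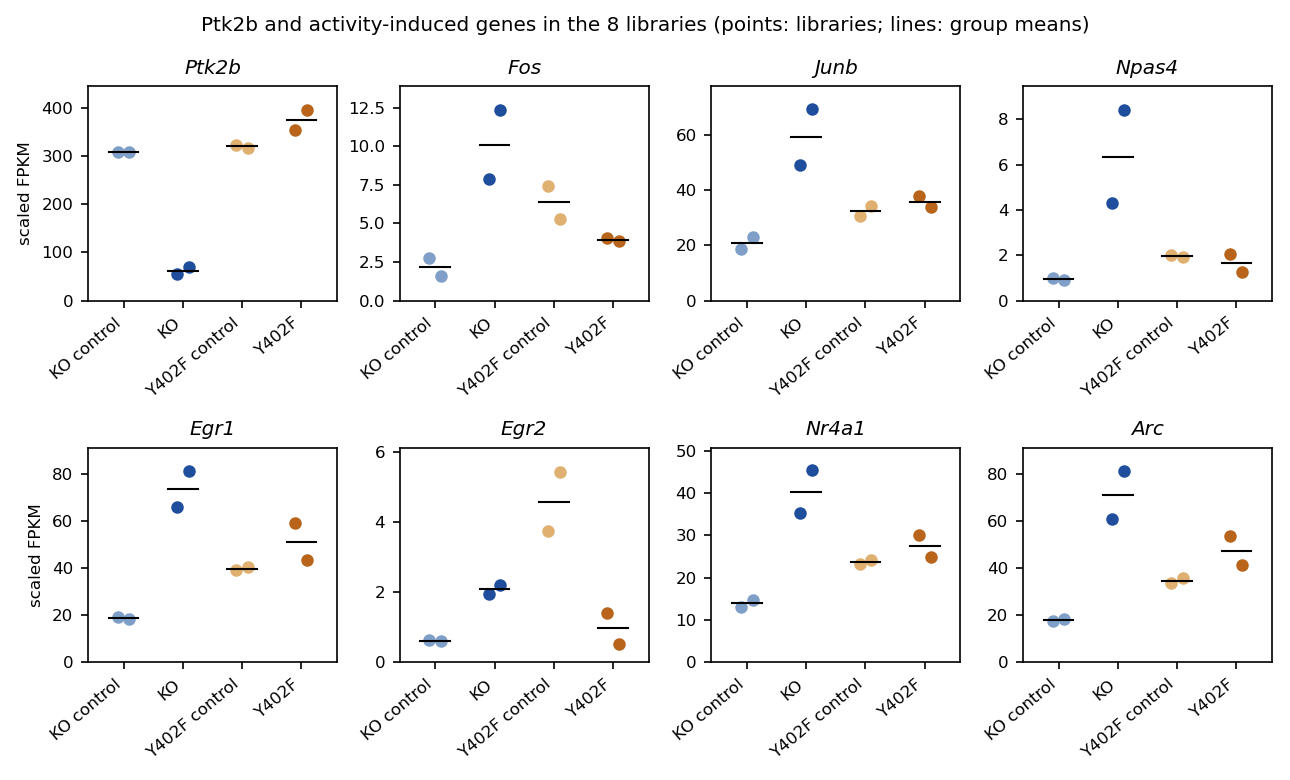
Scaled FPKM of Ptk2b and 7 activity-induced genes in the 8 libraries, 1 panel per gene with a linear axis from 0; points are libraries and lines are group means. Ptk2b is low in KO only, the 7 other genes are lower in the KO controls than in the Y402F controls, and 6 of them are highest in KO, the exception being Egr2, which is highest in the Y402F controls.

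Effector genes of the activity response act at synapses and in signalling. Arc, whose product governs the removal of AMPA receptors from synapses, was at 61.0 and 81.4 scaled FPKM in KO, 17.3 and 18.2 in KO controls, 53.5 and 41.4 in Y402F and 33.7 and 35.6 in Y402F controls. As with Egr1, the KO controls were far below the Y402F controls and KO lay above Y402F. The difference of effects was 1.5 (SE 0.23, limma adjusted p = 0.0998), with -0.93 from the control pair and 0.57 from the mutant pair. Dusp6 and Dusp1, which encode phosphatases that switch off MAP kinases, had 0.88 (SE 0.16) and 0.84 (SE 0.21). Gadd45b, a stress- and activity-induced gene, had 0.74 (SE 0.21).

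Of 25 effector genes tested, 15 were positive, where 51.7% of all genes were, and the median was 0.12. At an unadjusted p under 0.05, 5 were positive (20%, against 5.82% positive over all genes), and 0 were called. Bdnf (-0.17), Homer1 (-0.33), Vgf (-0.02) and Scg2 (-0.02) are other members, chosen after their values were seen. The median was 0.06 without KO control replicate 1, 0.19 without KO control replicate 2, and 0.21 without either KO replicate 1 or Y402F replicate 1.

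Outside the activity response, the most positive moderated t values included those of Wsb1, Brd2, Tmem131l, Trank1, Malat1 and Hnrnpdl. Wsb1, a subunit gene of a ubiquitin ligase, was at 10.4 and 7.81 scaled FPKM in KO, 2.79 and 4.33 in KO controls, 8.70 and 7.18 in Y402F and 16.4 and 17.4 in Y402F controls. The mutants resembled each other and the controls stood on either side of them. Its difference of effects was 2.16 (SE 0.30, limma adjusted p = 0.0998). The same arrangement held for Malat1, a nuclear long noncoding RNA, with 17.4 and 12 scaled FPKM in KO, 8.35 and 8.95 in KO controls, 19.9 and 9.46 in Y402F and 49.9 and 52.1 in Y402F controls. Malat1 differed in effect by 2.5 (SE 0.42, limma adjusted p = 0.123), with 0.07 from the mutant pair and -2.43 from the control pair. It passed with the sex term (limma adjusted p = 0.0143) and without Y402F replicate 1 (limma adjusted p = 0.0334).

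Brd2, a bromodomain gene, had 0.78 (SE 0.12) and Hnrnpdl, an RNA-binding protein gene, 0.98 (SE 0.17). Tmem131l had 1.56 (SE 0.23) and Trank1 1.55 (SE 0.24). In these 4 genes KO minus Y402F lay between -0.11 and 0.14, and KO controls minus Y402F controls between -1.66 and -0.64.

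Other long noncoding RNAs went with Malat1 only in part. Meg3 had 2.0 (SE 0.38), Snhg11 1.89 (SE 0.36) and Miat 1.64 (SE 0.34), while Snhg9 had -3.67 (SE 1.11) and Pantr1 -0.70. Of 17 tested, 11 were positive and the median was 0.31. At an unadjusted p under 0.05, 5 were positive and 2 negative (41.2%, against 13% of all genes). The median was 0.73 with the sex term, 0.14 without KO control replicate 1 and 0.16 without KO replicate 1.

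Under the same naming rule, the most negative moderated t values after Ptk2b and Arhgap27 belonged to Mgp, Rps15a, Cd52, Aif1l, Ppp4c, Idnk, Ss18l2, Zbed5, Cct7 and Rpl34. Mgp, an inhibitor of calcification made by vascular and meningeal cells, was at 16.8 and 14.6 scaled FPKM in KO, 42.0 and 35.6 in KO controls, 25.4 and 28.4 in Y402F and 24.0 and 26.1 in Y402F controls. KO was the lowest group and KO controls the highest, with both Y402F groups between. Mgp differed in effect by -1.36 (SE 0.19, limma adjusted p = 0.0998), from -0.75 in the mutant pair and 0.61 in the control pair.

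Cd52, a surface glycoprotein gene of lymphocytes and other leukocytes, was at 3.26 and 3.18 scaled FPKM in KO, 8.97 and 10.3 in KO controls, 5.79 and 6.98 in Y402F and 4.69 and 5.50 in Y402F controls. The pattern was that of Mgp, with a difference of effects of -1.60 (SE 0.24, limma adjusted p = 0.0998), on 9 to 20 expected counts in the mutants. Aif1l, an actin-bundling relative of a microglial protein gene, had -1.64 (SE 0.24). In the remaining genes (Ppp4c, a phosphatase subunit; Cct7, a chaperonin subunit; Idnk, a sugar kinase; Ss18l2 and Zbed5) KO minus Y402F lay between -0.32 and 0.25 and the control pair between 0.94 and 1.40.

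Known partners and substrates of Pyk2 were as a group near zero. Of 44 tested, 22 were positive, with 4 positive and 2 negative at an unadjusted p under 0.05 (13.6%, near the 13% of all genes). In this list 0 were called and the median was 0.01, which reached 0.09 when KO control replicate 2 was left out. Among adaptors, Crkl had 0.88 (SE 0.23) and Pxn, which encodes the focal adhesion scaffold paxillin, -0.81 (SE 0.23), with limma adjusted p-values of 0.207 and 0.235. Crkl was at 13.1 and 10.7 scaled FPKM in KO, 9.70 and 7.61 in KO controls, 11.6 and 11.3 in Y402F and 15.1 and 17.1 in Y402F controls. The mutants were alike within their spread and the controls were not.

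Among substrates, Cttn, the gene of the actin-binding protein cortactin, had 0.48 (SE 0.13), from effects of -1.15 in KO and -1.63 in Y402F. Ewsr1, an RNA-binding protein gene, had 0.68 (SE 0.15), from effects of -2.14 in KO and -2.82 in Y402F. KO minus Y402F was -0.09 for Cttn and 0.004 for Ewsr1, and KO controls minus Y402F controls -0.57 and -0.67. Of the kinases, Gsk3b had 0.54 (SE 0.18) and Fyn, a Src-family member, -0.38 (SE 0.16), whereas Src had -0.03. The NMDA receptor genes Grin2a and Grin2b had 0.30 and -0.01, and the postsynaptic scaffold gene Dlg4 had -0.22. In the mutant pair, 0 of the 44 had an unadjusted p under 0.05, against 2.33% of all genes.

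Genes next to Ptk2b on chromosome 14 were examined because alleles of a targeted line can carry linked variants. Of 20 tested, 10 were positive, with 1 positive and 2 negative at an unadjusted p under 0.05 (15%, near the 13% of all genes). The median was -0.00, with a range of -0.07 to 0.09 when 1 library was left out. Stmn4, a stathmin-family gene of neurons, was at 165 and 165 scaled FPKM in KO, 300 and 308 in KO controls, 193 and 205 in Y402F and 281 and 275 in Y402F controls. Both mutants were below their controls and KO was the lower, with a difference of effects of -0.40 (SE 0.10, limma adjusted p = 0.197). Ephx2, a soluble epoxide hydrolase gene, had -0.54 (SE 0.20), Pnma2 0.56 (SE 0.22) and Ccdc25 0.39 (SE 0.22).

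Genes of oxidative phosphorylation and of the ribosome had small negative values with few exceptions. In the nuclear-encoded respiratory chain, 44 of 45 genes were negative and 26 of them had an unadjusted p under 0.05, against 7.23% negative at that threshold over all genes. With all genes divided into 5 classes by mean scaled FPKM, that share was 16.7% in the highest class and 3.10% in the lowest. The median of the respiratory chain list was -0.43, with 0.11 in the mutant pair and 0.49 in the control pair, and 0 were called. Sdhc, a subunit of complex II, was at 72.2 and 78.7 scaled FPKM in KO, 169 and 163 in KO controls, 63.5 and 74.4 in Y402F and 91.0 and 89.5 in Y402F controls. The mutants overlapped and the KO controls stood far above all else, giving -0.74 (SE 0.14, limma adjusted p = 0.134). The complex I genes Ndufa4 and Ndufs7 had -0.61 (SE 0.11) and -0.65 (SE 0.13), and Atp5j2, of ATP synthase, -0.76 (SE 0.15).

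Of 69 cytosolic ribosomal protein genes, 65 were negative, with a median of -0.38 and 0 called. Of the 65, 32 had an unadjusted p under 0.05 (46.4% of the list, against 7.23% negative over all genes). Rpl34 was at 135 and 133 scaled FPKM in KO, 170 and 156 in KO controls, 125 and 158 in Y402F and 86.7 and 82.1 in Y402F controls. Its groups differed mainly in the controls, with -1.01 (SE 0.16, limma adjusted p = 0.114). Rps15a had -1.05 (SE 0.15), Rpl22 -0.84 (SE 0.17) and Rpl31 -0.82 (SE 0.15). Ribosomal protein genes have many near-identical pseudogenes, among which counting programs can split reads differently, so that these values are uncertain. The medians of both lists were nearer to zero in several settings, of which 3 are given. With quantile normalization they were -0.27 for the respiratory chain and -0.24 for ribosomal proteins, and without Y402F replicate 2 -0.29 and -0.23. With the trend on transcript length removed, a setting added after seeing the data, they were -0.13 and -0.10.

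Transcript length went with the difference of effects over all genes. When genes were divided by length into 5 classes of nearly equal size, the median difference of effects was -0.21 in the shortest class, then -0.06, 0.02, 0.09 and 0.17 in the longest. The control pair ran from 0.24 in the shortest class to -0.21 in the longest, and the mutant pair from 0.04 to -0.03. At an unadjusted p under 0.05, 18.2% of the shortest genes were negative and 2.94% positive, while 1.09% of the longest were negative and 10.1% positive. After the length trend was removed from each library, 5 genes were called and 1428 had an unadjusted p under 0.05. The median of the Egr, Nr4a and Npas4 group was then 0.80 and that of AP-1 factors 0.39. For choroid plexus genes it was 0.92, over members that passed the filter through libraries containing choroid plexus, so that it supports nothing.

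**Figure D4:**
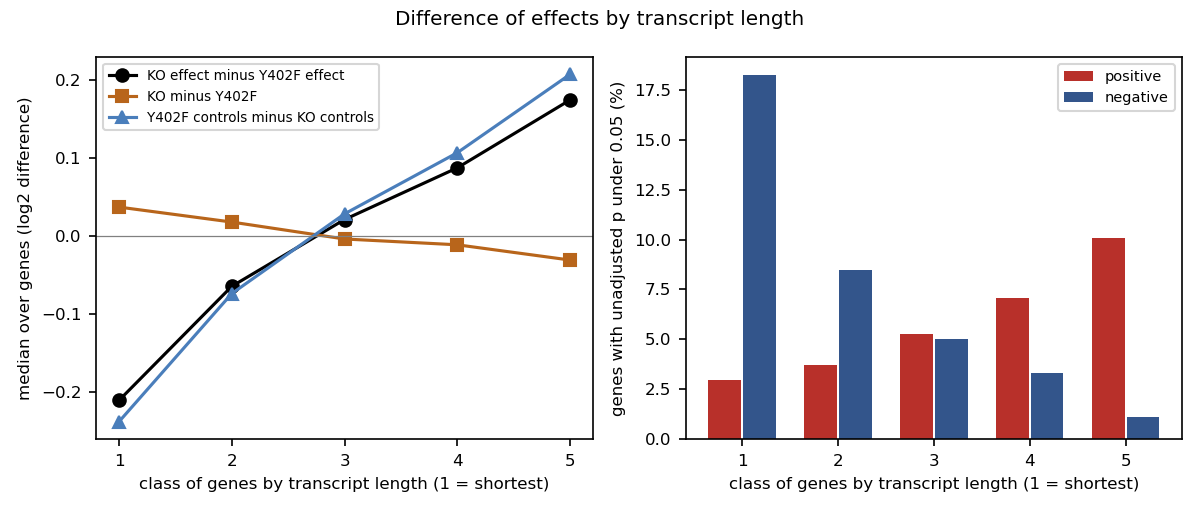
Left, median log2 difference over genes in 5 classes of transcript length, for the difference of effects and its 2 components (the control pair drawn as Y402F controls minus KO controls); right, the percentage of each class with an unadjusted limma p under 0.05, by direction. The difference of effects climbs from -0.21 to 0.17 along with the control pair, and the mutant pair stays within 0.04 of zero.

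Heat shock and endoplasmic reticulum chaperones were negative in 21 of 28 genes, with a median of -0.21 and 0 called. At an unadjusted p under 0.05, 1 was positive and 9 were negative (35.7%, against 13% of all genes). The 9 were Calr, a calcium-binding chaperone of the endoplasmic reticulum, at -0.62 (SE 0.11), Sdf2l1 at -1.44 (SE 0.27), Pdia6, a disulfide isomerase, at -0.80 (SE 0.15), Manf, a secreted stress-induced factor, at -0.77 (SE 0.15), Hspa5 at -0.67 (SE 0.15), Hspb1, a small heat shock protein, at -1.11, Xbp1, a factor of the unfolded protein response, at -0.80, Creld2 at -0.61 and Hspe1, a mitochondrial co-chaperonin, at -0.39. The positive one was Dnaja1, a co-chaperone of the cytosol, at 0.43. Calr was at 216 and 202 scaled FPKM in KO, 296 and 283 in KO controls, 221 and 208 in Y402F and 198 and 187 in Y402F controls. Here again the mutants overlapped, and the KO controls were the high group.

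Choroid plexus genes were positive in all 10 that passed the filter of 18 listed, the other 8 being under it, with 4 at an unadjusted p under 0.05 and 0 called. Since members pass the filter through libraries that contain choroid plexus, neither this count nor the median over these members supports anything. The median was 0.89, with -0.51 in the mutant pair and -1.45 in the control pair, and was 0.30 with the sex term, 0.33 without Y402F replicate 1 and 1.41 without Y402F replicate 2. Kcnj13, a potassium channel gene of this epithelium, was at 0 and 0 scaled FPKM in KO, 0.169 and 0.249 in KO controls, 0.138 and 1.32 in Y402F and 2.80 and 5.57 in Y402F controls. Like Ttr, it was high in the Y402F controls and in Y402F replicate 2 only. Enpp2, the autotaxin gene, had 1.11 (SE 0.48) and Kl, the klotho gene, 0.96 (SE 0.38). Without Y402F replicate 1 these were 0.45 and 0.50, and without Y402F replicate 2 they were 1.77 and 1.40, where Enpp2 passed (limma adjusted p = 0.0223) and Kl did not (limma adjusted p = 0.287). The summed level of the 6 choroid plexus markers was 751 scaled FPKM in Y402F replicate 2, 1141 and 1166 in the Y402F controls and 39.4 to 53.7 in the other 5 libraries, and its part in other results was not tested. In bulk tissue, fewer cells of a type and less RNA per cell cannot be told apart.

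Leptomeningeal and fibroblast genes leaned the other way, with a median of -0.37, 12 of 16 negative and 4 positive. At an unadjusted p under 0.05, 3 were negative (18.8% of the list, against 7.23% negative over all genes). The 3 were Mgp, Fmod, a collagen-binding proteoglycan, and Igfbp2, which binds insulin-like growth factors, at -0.92 (SE 0.24). Fmod was at 0.828 and 1.74 scaled FPKM in KO, 5.19 and 4.10 in KO controls, 3.56 and 6.98 in Y402F and 3.58 and 2.79 in Y402F controls, and its difference of effects was -1.86 (SE 0.44, limma adjusted p = 0.166). Unlike most genes it had a larger mutant-pair (-1.43) than control-pair difference (0.43). With the sex term the list's median was -0.71 and without Y402F replicate 1 it was -0.58. The summed level of the 5 meningeal markers ranged from 22.8 scaled FPKM in KO replicate 2 to 66.6 in Y402F control replicate 2. The most abundant of these markers, Dcn, had another pattern than Mgp and Fmod. It was at 25.3 and 14.5 scaled FPKM in KO and 32.3 and 32.2 in KO controls. In Y402F it was at 23.3 and 30.5, and its Y402F controls were the highest group, at 52.2 and 57.8.

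Of 7 blood genes, 6 were negative, 2 of them at an unadjusted p under 0.05 (28.6%, against 7.23% negative over all genes). The median was -0.24. It was -0.75 without Y402F replicate 1, -0.65 without KO replicate 2, -0.15 without KO replicate 1 and -0.13 without Y402F replicate 2. Alas2, of heme synthesis, had -0.96 (SE 0.34). The hemoglobin genes Hba-a1 (-0.82, SE 0.32) and Hba-a2 (0.31, SE 0.29) have almost the same sequence, so that reads can be split between them differently by each program, and their opposite values are uncertain. Without Y402F replicate 1, Hba-a2 was at -0.05. The summed level of the 2 hemoglobin markers was 359 and 347 scaled FPKM in KO controls and 149 to 264 in the other libraries.

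Of 17 astrocyte genes, 11 were negative, with 2 positive and 7 negative at an unadjusted p under 0.05 (52.9%, against 13% of all genes). The list's median of -0.35 became -0.12 with quantile normalization and -0.15 without Y402F replicate 2. Aldoc, a glycolytic enzyme gene, had -0.48 (SE 0.10), Glul, glutamine synthetase, -0.36 (SE 0.12) and Mlc1 -0.57 (SE 0.19), while the water channel gene Aqp4 had 0.42 (SE 0.15). In oligodendrocytes, 9 of 18 genes were positive, with 0 positive and 3 negative at an unadjusted p under 0.05 (16.7%, near the 13% of all genes). The median was -0.03. Of 16 microglial genes, 11 were negative, with 1 positive and 5 negative at an unadjusted p under 0.05 (37.5%, against 13% of all genes). The median was -0.26. Without Y402F replicate 1 that median was -0.47, without KO replicate 1 -0.16 and without Y402F replicate 2 -0.11. The 5 were the adaptor genes Tyrobp (-0.86, SE 0.18) and Fcer1g (-0.95, SE 0.20) and the complement genes C1qa, C1qb and C1qc (-0.55, -0.58 and -0.48). The receptor genes Cx3cr1, P2ry12 and Csf1r, which mark microglia, had 0.03, 0.18 and 0.32. The summed level of 3 microglial markers was 86.4 and 85.6 scaled FPKM in KO controls and 61.9 to 82.6 in the other 6 libraries.

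Of 14 dentate granule cell genes 11 were positive, with 4 positive and 1 negative at an unadjusted p under 0.05 (35.7%, against 13% of all genes). The median was 0.21. Prox1, the factor that specifies granule cells, was at 15.1 and 16.6 scaled FPKM in KO, 8.67 and 9.31 in KO controls, 19.8 and 19.0 in Y402F and 17.8 and 15.5 in Y402F controls. The KO controls were the low group, and the difference of effects was 0.54 (SE 0.18, limma adjusted p = 0.292). Npnt, an extracellular matrix gene, had 1.07 (SE 0.21), and Dsp, the desmoplakin gene, 1.01 (SE 0.33), both with low KO controls, while Lct had -0.61 (SE 0.21). Markers of neocortex, striatum and thalamus had a median of -0.05 over 15 genes, with Rasgrf2 at 0.64 (SE 0.16), Fezf2 at 0.61 (SE 0.17) and Etv1 at 0.70 (SE 0.22) among its members. That median was positive without KO replicate 2 (0.04), Y402F replicate 2 (0.06) or KO control replicate 2 (0.22), and was -0.10 without Y402F replicate 1 and -0.01 without KO control replicate 1.

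Clock, hormone and immune lists were examined because time of day, stress and infection alter hippocampal transcripts. Of 18 circadian clock genes, 16 were positive, 4 of them at an unadjusted p under 0.05 (22.2%, against 5.82% positive over all genes). The median of 0.29 became 0.08 once the length trend was removed and 0.19 without Y402F replicate 1. Nr1d1 and Nr1d2, which encode heme-binding repressors of the clock, had 0.47 (SE 0.19) and 0.61 (SE 0.21), Bhlhe40 0.40 (SE 0.17) and Npas2 0.53 (SE 0.23). Of 15 glucocorticoid targets, 7 were positive and 8 negative, 2 of the latter at an unadjusted p under 0.05, which over all genes held for 13% in either direction. The median was -0.23, but leaving out KO replicate 1 turned it to 0.06 and leaving out KO replicate 2 gave -0.35. It was -0.01 without Y402F replicate 2, -0.04 without KO control replicate 1 and -0.03 without KO control replicate 2. The metallothionein genes Mt1 (-0.30, SE 0.11) and Mt2 (-0.62, SE 0.19) made up those 2, while Sgk1 (0.40) and Fkbp5 (-0.23) differed in sign. Of 17 interferon and MHC class I genes 6 were positive, with a median of -0.22 (-0.12 without Y402F replicate 2 and -0.09 without Y402F control replicate 1). Isg15 at -0.93 (SE 0.36) was the one with an unadjusted p under 0.05 (5.88%, against 13% of all genes).

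Sex-linked genes followed the sex pattern of the libraries. Xist, the RNA that silences one X chromosome in female cells, was at 25.5 and 0.170 scaled FPKM in KO, 40.2 and 0.106 in Y402F, 3.95 and 3.24 in KO controls and 0.0522 and 0.295 in Y402F controls, with a difference of effects of -2.25. Eif2s3y, Ddx3y and Kdm5d, all Y-linked, had 2.76, 2.59 and 2.02, with standard errors of 1.41, 1.25 and 0.99, as the libraries within each mutant group were far apart. The X-linked Kdm5c had -0.63 (SE 0.22). With the sex term, Eif2s3y was at -0.02.

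**Figure D5:**
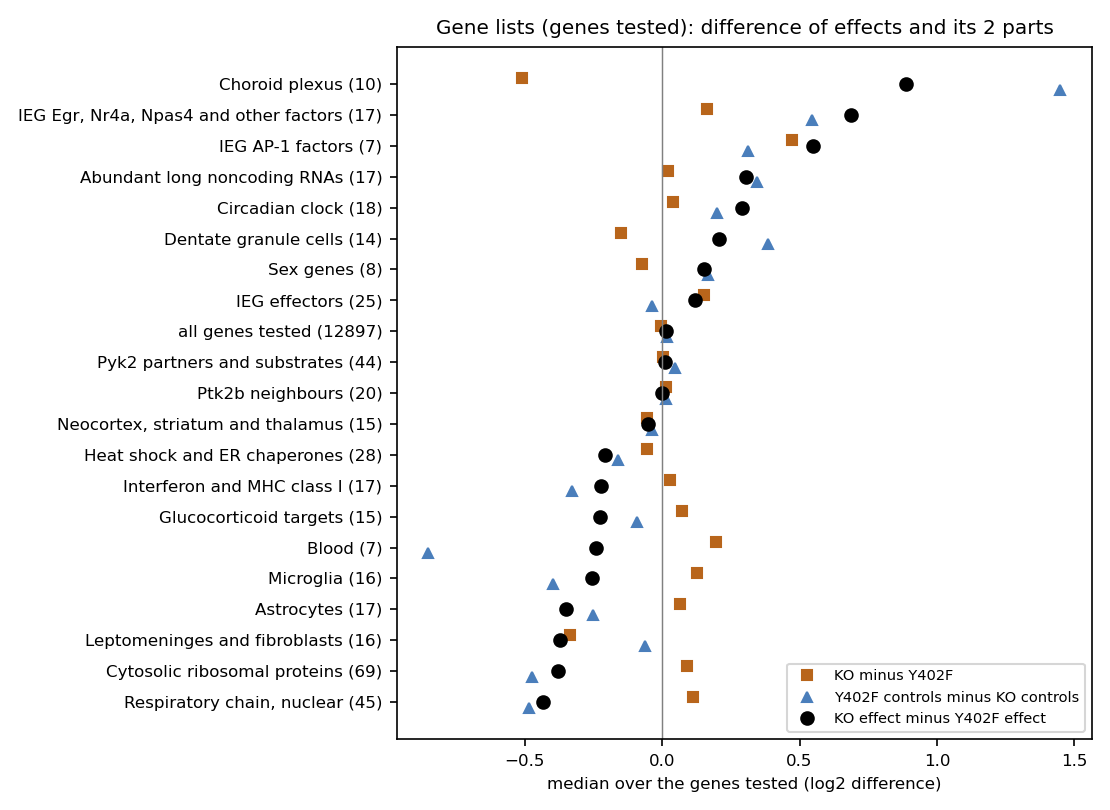
Median log2 difference over the tested genes of each list (number in brackets), for the difference of effects (black circles) and its 2 components, KO minus Y402F (orange squares) and Y402F controls minus KO controls (blue triangles). The respiratory chain and ribosomal lists are lowest at -0.43 and -0.38, the AP-1 list at 0.55 and the Egr, Nr4a and Npas4 list at 0.69 stand above most others, and the AP-1 list has the highest orange square, at 0.47.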

How the data were processed

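Hippocampal RNA-seq of 8 libraries was analysed from the deposited tables. Each mutant table deposited by the authors gives an expected count, FPKM and transcript length per Entrez gene; the program behind the expected counts was not given in the sources used here. Each control table deposited by the authors gives FPKM per Ensembl gene with lower and upper bounds, and holds no counts. Bowtie 1, HISAT and mm9 are named for every sample, and Cufflinks for the controls, per the submitters' processing notes, although 99.8% of the gene positions checked lie on GRCm38, which is printed.

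Of 18022 mutant genes, 17976 had a RefSeq symbol, 17665 of these were in the control tables, and 17596 remained after 69 repeated symbols were dropped. Genes outside the join held 1.57 to 1.75% of expected counts and 52.0 to 62.1% of control FPKM, mostly mitochondrial genes. FPKM was divided by median-of-ratios factors, and the 12897 genes whose mean reached 1 FPKM were tested with limma 3.58.1 (trend, R 4.3.3) on log2 of the value plus a pseudocount of 1, in 4 groups with 4 residual degrees of freedom, at a Benjamini-Hochberg adjusted p under 0.05. Differences of low genes are understated on this scale. In simulated data with the same groups over 12897 genes, 37.1% of genes changed by a log2 of 1 and 80.2% of those changed by 2 were called. Of the genes left unchanged there, 4 were called as well. Changes were placed only in genes with a mean log2 above 2, and the lines were otherwise simulated with equal effects. Recovery in lower genes, or with control groups that differ as observed, was not tested. Python 3.11.15, pandas 2.3.3, numpy 2.4.6, matplotlib 3.10.9 and edgeR 4.0.16 (TMM factors only) were used.

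The comparison, the gene lists and the rules were chosen with earlier results of these data known. Named were Ptk2b and Ptk2; every called gene; the 12 most positive and the 12 most negative moderated t with a difference of at least 0.5, leaving out symbols of the forms Gm, Rik, LOC, AU, BC, AI, Mir, Snor, Rn, mt-, histone and -ps; and up to 4 members per list by smallest p. Lists were described where their median departed from that of all genes by over 0.2 or at least 1 in 3 members had an unadjusted p under 0.05, and 7 always. Other members given by value were chosen after their values were seen. Some genes that the rule names are not reported here.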

Additional observations from a re-analysis of the deposited data

Results flagged for a closer look

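In 4 genes the effect of the knockout differed from the effect of the Y402F substitution by the limma test of that difference itself, each at an adjusted p under 0.05. Ptk2b differed by -2.52 on the log2 scale and A830082N09Rik by -6.70. Rny1 differed by -5.64 and Mir8104 by -4.42. The values of Ptk2b rest on 1204 to 8813 expected counts in the mutants, those of Rny1 on 0 or 1 and those of Mir8104 on 0 to 8.32, and A830082N09Rik is high in the KO controls only, where its Cufflinks bounds begin at 0. With groups of 2 libraries, no check for outlying samples was made.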

How the results depend on the processing

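Against 4 genes called, the count was 7 without a filter on low values, 2 with a mean of at least 5 FPKM, 2 when unnamed-gene symbols and small RNAs were dropped (Ptk2b and Arhgap27), 138 with a term for sex and, added after seeing the data, 1 without genes whose Cufflinks lower bound is 0. Leaving out 1 library at a time gave 6 to 16 calls, and all 4 genes were among them each time. Such fits take the spread of the group left with 1 library to be that of the others. Other pseudocounts, scalings, no trend, no X or Y genes and removal of the length trend gave 4 or 5. With a replicate block the count was 5, adding Arhgap27 (limma adjusted p = 0.0202). Same-numbered libraries deviated together with a correlation of 0.20 between KO and Y402F, where number and sex pattern coincide and cannot be told apart. In the other 5 pairs of groups the correlation was -0.03 to 0.05. Whether the replicate numbers stand for a pairing was not tested further. The sign turned for Eif2s3y with the sex term (-0.016) and for Hba-a2 without Y402F replicate 1 (-0.048, against up to 0.66 without Y402F replicate 2). Of the other values for named genes, 2096 kept direction and side of the threshold, 35 newly passed it, 20 of them with the sex term, and 1 no longer did. The cause of these shifts was not tested. The depth of the control libraries is unknown, and Rny1, Mir8104, Egr2, Cd52 and Npas4 rest on few mutant counts.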

Other observations

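Bc1, a short noncoding RNA of dendrites that lies outside the named lists, was at 12539 to 23165 scaled FPKM in the mutants, at 1014400 and 984140 in the KO controls and at 504670 and 529260 in the Y402F controls.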
